A study of Mus musculus with 6 samples.

Results

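Aminoacyl-tRNA synthetases were examined in HT22 cells with and without aluminum, using 20 genes of cytosolic enzymes and 16 genes of mitochondrial enzymes, whose names end in 2. The 36 genes were taken by symbol from the 21878 gene symbols of the deposited expression table, and all 36 were found and tested. HT22 is an immortalized line of mouse hippocampal neuronal cells. The control group was 3 libraries of HT22 cells without aluminum, and the Al group was 3 libraries of HT22 cells collected after 24 h with 120 µM aluminum maltolate, a soluble complex of aluminum with maltol. The methods name a medium-only Control group and a separate maltol control, the sequenced libraries are labelled only as control, and no library labelled as maltol was analysed here, so an effect of maltol and one of aluminum cannot be told apart. Treated libraries carry only the letter M in the labels and were read as the Al group, since the series has only a control group and an Al group and the letter C marks the controls. All 6 were input libraries of an m6A immunoprecipitation, made from fragmented RNA before enrichment.

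An aminoacyl-tRNA synthetase joins an amino acid to its tRNA, which then brings it to the ribosome. Mammalian cells keep one set of these enzymes in the cytosol and another in the mitochondria, where the few proteins of the respiratory chain that are encoded in mitochondrial DNA are made, and both sets are encoded in the nucleus. Gars and Kars, the glycyl and lysyl enzymes, serve both compartments from one gene each. Eprs joins the glutamyl and prolyl enzymes in one protein, and Farsa and Farsb are the subunits of the cytosolic phenylalanyl enzyme. Several cytosolic enzymes sit together with scaffold proteins in the multisynthetase complex. Uncharged tRNA activates the kinase GCN2, and its downstream factor ATF4 is known to bind near many cytosolic synthetase genes.

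The measure was FPKM, in which the fragments of a gene are divided by its length and by the library's total, so that genes can be compared per unit of length. The whole reads behind these values summed to between 37768842 and 44220124 per control library and between 20973691 and 26487603 per Al library, and single members rested on 63 to 47866 reads in a library. Values are given below as deposited. Fold changes were computed after each library was divided by a size factor (the median ratio of its genes to their geometric mean over the libraries), and they are called scaled log2 fold changes. A gene was called at an adjusted P under 0.05 and an absolute scaled log2 fold change over 0.58. The median of all tested genes was 0.03 on this scale but -0.43 with FPKM as deposited, so that scaled fold changes read higher than the deposited FPKM alone would give. Of 9 neuronal markers, 3 reached a mean of 1 FPKM in each group, with Rbfox3, Map2, Snap25, Nefl and Dcx at or near 0, and their sum ran from 14.98 to 17.0 FPKM in the control and from 6.67 to 9.34 in the Al libraries. All 4 fibroblast markers were above 1 FPKM in both groups, with a sum of 2021 to 3222 FPKM in the control and 2478 to 3461 in the Al libraries, nearly all of it Col1a1 and Col1a2. Of the other fibroblast markers, Dcn was at 3.77 to 13.4 FPKM in the control and 1.24 to 2.29 in the Al libraries, and Pdgfrb at 19.6 to 46.2 and 10.8 to 19.9 FPKM. The 4 astrocyte markers summed to 13.9 to 23.0 FPKM in the control and 1.51 to 2.61 in the Al libraries, nearly all of it Slc1a3, while Aqp4 was listed at 0 throughout. The 4 microglia markers summed to 39.3 to 48.9 and 22.1 to 72.6 FPKM, nearly all of it Tmem119, with P2ry12 at 0, and the 4 oligodendrocyte markers stayed below 1 FPKM in sum. The part of these marker differences in the synthetase results was not tested. In bulk RNA, fewer cells of a type and less RNA per cell cannot be told apart.

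In the Al group, 14 of the 36 synthetase genes fell and 4 rose. Among the cytosolic genes, 7 of 20 (35%) were called lower, led by Wars, Eprs, Gars and Nars, and 2 of 20 (10%), Kars and Rars, were called higher. Among the mitochondrial genes, 7 of 16 (43.8%) were called lower, led by Iars2, Sars2 and Fars2, and 2 of 16 (12.5%), Yars2 and Mars2, were called higher. Over all 12889 tested genes, 23.7% were called lower and 25.5% higher. The median scaled log2 fold change was -0.35 for the cytosolic and -0.38 for the mitochondrial genes. These counts and medians depended on the scaling between libraries. With FPKM as deposited, TPM or quantile normalization, 14, 16 and 11 cytosolic genes were called lower and 0 higher, and the cytosolic median was -0.84, -1.14 and -0.80. Of all tested genes, 41.3%, 52.2% and 23.3% were called lower under these scalings and 13.5%, 8.85% and 21.5% higher. For the mitochondrial genes 13 were called lower and 0 higher with TPM and 4 lower with quantile normalization, and the median was -0.86, -1.16 and -0.18 under these scalings. After scaling, the 3 Al values lay wholly apart from the 3 control values for 29 of the 36 members (80.6%), against 68.1% of all tested genes. Of these, 23 had the Al libraries below and 6 had them above the control libraries. Of all 12889 tested genes, 4261 had them below and 4519 above. With FPKM as deposited, Sars and Hars2 were no longer among the members above.

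**Figure D1:**
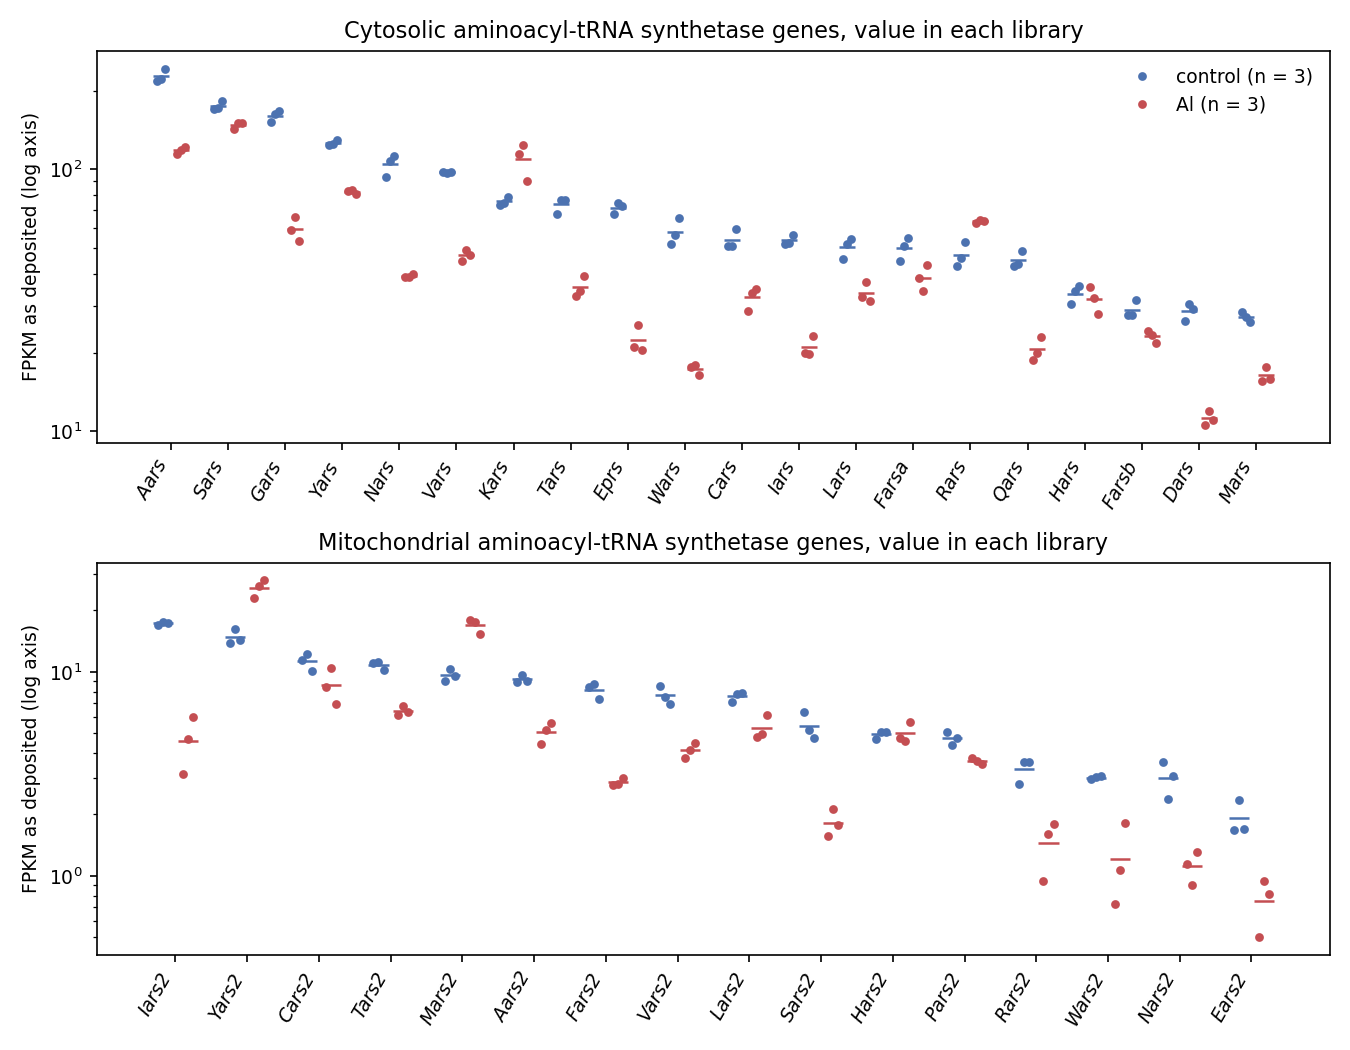
FPKM as deposited (log axis) of the 20 cytosolic genes (upper panel) and the 16 mitochondrial genes (lower panel), ordered by control mean. Points are the 3 libraries of each group and lines are group means. Kars, Rars, Yars2 and Mars2 are the genes whose Al points lie wholly above the control points at this scale.

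**Figure D2:**
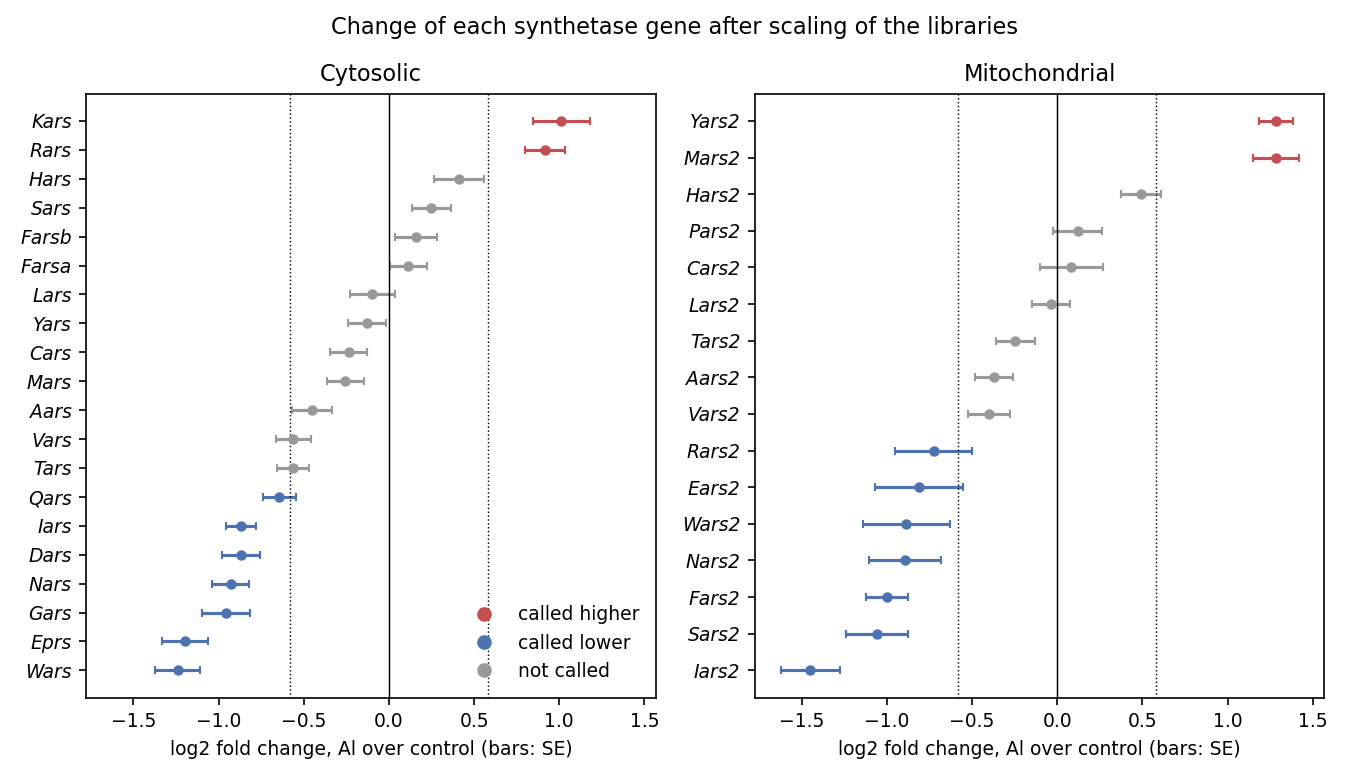
Scaled log2 fold change, Al over control, of each member, with bars of 1 SE and dotted lines at the fold threshold of 0.58 in each direction. On this scale 7 cytosolic and 7 mitochondrial genes were called lower and 2 of each were called higher. The higher calls of Kars and Rars were lost with FPKM as deposited, TPM or quantile normalization, and those of Yars2 and Mars2 with TPM.

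The promoters of several members hold sequences that bear on how such genes are known to be controlled, and they are shown here for comparison with the values that follow. RefSeq promoters on GRCm38.p6, each 250 bases before to 50 after a transcription start, were found for 27 of the 36 members, 13 cytosolic and 14 mitochondrial. The amino acid response element, a C/EBP-ATF composite to which ATF4 binds, was searched as TGATGNAA on both strands. It was found in 5 of 13 cytosolic (38.5%) and 0 of 14 mitochondrial promoters, against 4.51% of all 27025 genes and 3.97% of all 32851 promoters of that length. The windows below run 5′ to 3′ on the strand of the gene, with the match in capitals. A match on the opposite strand reads as its reverse complement, as in every gene here but Yars.
Aars, chr8:111033840-111033869, plus strand: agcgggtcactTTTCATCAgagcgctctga
Gars, chr6:55037960-55037989, plus strand: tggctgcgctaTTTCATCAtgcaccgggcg
Iars, chr13:49682126-49682155, plus strand: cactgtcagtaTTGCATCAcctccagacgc
Tars, chr15:11399655-11399684, minus strand: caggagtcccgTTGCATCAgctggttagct
Yars, chr4:129189895-129189924, plus strand: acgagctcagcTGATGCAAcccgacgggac

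All 5 genes with this element had a negative scaled log2 fold change, from -0.95 in Gars to -0.13 in Yars, as did 14 of all 20 cytosolic genes and 6304 of the 12889 tested genes. Gars and Iars were called lower, and Aars, Tars and Yars were not called. A match is a description of the letters in this window and not a measured binding site.

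The site of NRF1, a factor of nuclear genes with mitochondrial functions, was searched as GCGCANGCG on both strands. It was found in 3 of 13 cytosolic promoters (23.1%: Farsb, Kars and Tars) and 4 of 14 mitochondrial promoters (28.6%: Iars2, Mars2, Vars2 and Wars2), against 7.03% of all genes and 6.25% of all promoters. In Tars, which holds both motifs, their matches do not overlap. The 4 called genes are shown because they moved in both directions.
Kars, chr8:112011384-112011413, minus strand: gcccagcactgCGCCTGCGCagcgagagtc
Mars2, chr1:55237168-55237197, plus strand: accgtccagctGCGCACGCGccctttcccg
Iars2, chr1:185329374-185329403, minus strand: ccgccccggagCGCGTGCGCagttcctcgc
Wars2, chr3:99141015-99141044, plus strand: ccagaggacagGCGCATGCGtagtaagcac

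Kars and Mars2 were called higher, Iars2 and Wars2 were called lower, and the other 3 genes with this motif were not called.

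The cytosolic enzymes are described first, beginning with those that fell. Wars, the tryptophanyl enzyme (chr12:108860030-108894174 on GRCm38, minus strand), was at 51.8, 56.2 and 65.0 FPKM in the control libraries and at 17.6, 17.9 and 16.4 FPKM in the Al libraries. Its scaled log2 fold change was -1.24 ± 0.13 (SE, adjusted P = 8.05e-05), the most negative of the cytosolic genes. The highest Al value of Wars was well below its lowest control value. Eprs, the fused glutamyl-prolyl enzyme and a member of the multisynthetase complex (chr1:185363044-185428360, plus strand), was at 67.5, 74.6 and 72.7 FPKM in the control and 21.0, 25.5 and 20.4 FPKM in the Al libraries. Its scaled log2 fold change was -1.20 ± 0.13 (SE, adjusted P = 0.000109), and the groups did not overlap. Gars, the glycyl enzyme of both compartments, was at 151, 163 and 167 FPKM in the control and 58.6, 65.7 and 53.1 FPKM in the Al libraries, a scaled log2 fold change of -0.95 ± 0.14 (SE, adjusted P = 0.000476). In the control libraries it was among the most abundant synthetase mRNAs, and every Al library was below every control library.

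Nars, the asparaginyl enzyme, was at 93.9, 108 and 112 FPKM in the control and 38.8, 38.7 and 39.9 FPKM in the Al libraries. The Al libraries were nearly equal for this gene, and its scaled log2 fold change was -0.93 ± 0.11 (SE, adjusted P = 0.000139). Dars, the aspartyl enzyme of the complex, was at 26.5, 30.8 and 29.4 FPKM in the control and 10.6, 12.02 and 11.1 FPKM in the Al libraries, a scaled log2 fold change of -0.87 ± 0.11 (SE, adjusted P = 0.000226). It was the lowest of the 20 cytosolic genes in all 3 Al libraries. Iars, the isoleucyl enzyme of the complex, was at 52.1, 52.4 and 56.3 FPKM in the control and 19.98, 19.8 and 23.1 FPKM in the Al libraries, a scaled log2 fold change of -0.87 ± 0.089 (SE, adjusted P = 6.92e-05). A near-identical copy of Iars, Gm4849, is annotated elsewhere in the genome, so that its reads could have been split. Qars, the glutaminyl enzyme of the complex, was at 42.7, 43.5 and 49.1 FPKM in the control and 18.8, 19.98 and 23.0 FPKM in the Al libraries. Its scaled log2 fold change of -0.64 ± 0.097 (SE, adjusted P = 0.000540) was the smallest among the cytosolic genes called lower.

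Kars and Rars, both of the multisynthetase complex, were the cytosolic genes that rose. Kars, the lysyl enzyme of both compartments (chr8:111993443-112011323, minus strand), was at 73.5, 74.4 and 78.7 FPKM in the control and 115, 124 and 90.1 FPKM in the Al libraries. All Al libraries were above all control libraries, with replicate 3 the lowest of them, and the scaled log2 fold change was 1.01 ± 0.17 (SE, adjusted P = 0.000948). Rars, the arginyl enzyme (chr11:35808381-35834506, minus strand), was at 42.8, 45.8 and 53.0 FPKM in the control and 62.3, 63.9 and 63.8 FPKM in the Al libraries. Its scaled log2 fold change was 0.92 ± 0.12 (SE, adjusted P = 0.000211), again without overlap. Both increases depended on the scaling. With FPKM as deposited the log2 fold change was 0.53 for Kars and 0.43 for Rars, under the threshold of 0.58, and with TPM, each library scaled to the same sum, it was 0.23 (adjusted P = 0.0865) for Kars and 0.13 (adjusted P = 0.322) for Rars. On the scaled values the dual-compartment genes thus moved in opposite directions, Gars down and Kars up.

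The other 11 cytosolic genes were not called. Tars, the threonyl enzyme, and Vars, the valyl enzyme, had a scaled log2 fold change of -0.56 each, just short of the fold threshold, with an adjusted P of 0.000940 and 0.00148. Aars, the alanyl enzyme and the most abundant synthetase mRNA of the control libraries at 227 ± 13.6 FPKM (SD, n = 3), was at 119 ± 3.27 FPKM in the Al libraries, a scaled log2 fold change of -0.45 with an adjusted P of 0.00934. The histidyl gene Hars had a scaled log2 fold change of 0.41 with an adjusted P of 0.0371, so that these 4 genes passed the adjusted P but not the fold threshold. The remaining 7 had an adjusted P above 0.05. Their scaled log2 fold changes were -0.26 for Mars (methionyl), -0.24 for Cars (cysteinyl), -0.13 for Yars (tyrosyl), -0.10 for Lars (leucyl), 0.11 for Farsa, 0.16 for Farsb and 0.25 for Sars (seryl).

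Of the 8 enzymes of the multisynthetase complex, 4 fell (Eprs, Iars, Dars and Qars), 2 rose (Kars and Rars), and Mars and Lars were not called. These were 50% called lower and 25% called higher, against 23.7% and 25.5% of all tested genes, and the median scaled log2 fold change of the 8 was -0.45. Of the 12 cytosolic genes outside the complex, 3 fell (25%: Wars, Gars and Nars) and 0 rose, with a median of -0.34. As deposited, the FPKM gave 6 of the 8 called lower inside the complex and 8 of the 12 outside it, with 0 higher in both, against 41.3% of all tested genes called lower at that scale. With quantile normalization 4 were called lower inside and 7 outside, with 0 higher in both. Of all tested genes, 23.3% were called lower and 21.5% higher under that scaling. Whether the complex differed from the rest was not tested. Among the 3 scaffold genes, Aimp1 was called lower, with 29.8 ± 6.04 FPKM in the control and 13.1 ± 0.760 FPKM in the Al libraries (SD, n = 3 each). Its scaled log2 fold change was -0.67 ± 0.15 (SE, adjusted P = 0.00413), and Aimp2 and Eef1e1 were not called, at 0.07 and 0.15. With FPKM as deposited Aimp2 and Eef1e1 were at -0.41 and -0.33 and were not called. With TPM they were called lower, at -0.71 and -0.63, as were 52.2% of all tested genes.

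Synthetases fall into class I and class II by the fold of their catalytic domain. Of the 18 class I members, 7 fell (38.9%) and 3 rose (16.7%: Rars, Yars2 and Mars2), with a median scaled log2 fold change of -0.33. Of the 17 class II members, 6 fell (35.3%) and 1 rose (5.88%: Kars), with a median of -0.37. Eprs, which holds a domain of each class, was counted in neither. Over all tested genes 23.7% were called lower and 25.5% higher. Under FPKM as deposited the class I counts were 13 lower and 2 higher and the class II counts 10 lower and 0 higher, against 41.3% and 13.5% of all tested genes. Kars lost its call under that scaling, TPM and quantile normalization.

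The mitochondrial enzymes were expressed at lower levels. In each control library every cytosolic gene was above every mitochondrial gene in FPKM. The lowest cytosolic value was between 26.3 and 27.4 FPKM in these libraries, and the highest mitochondrial value, that of Iars2, was between 16.9 and 17.6 FPKM. In the Al libraries the sets overlapped, since Yars2 was then above 6, 7 and 7 cytosolic genes in replicates 1, 2 and 3.

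Iars2, the mitochondrial isoleucyl enzyme (chr1:185284726-185329396, minus strand), was at 16.9, 17.6 and 17.3 FPKM in the control and 3.15, 4.67 and 5.98 FPKM in the Al libraries. It had the most negative scaled log2 fold change of the 36 members, -1.45 ± 0.17 (SE, adjusted P = 0.000149). It was the highest mitochondrial synthetase in the control libraries, and the Al values differed among themselves more than the control values did. The gene lies in the same region of chromosome 1 as Eprs, on the opposite strand, and its exons overlap those of Rab3gap2. Sars2, the mitochondrial seryl enzyme, was at 6.37, 5.17 and 4.75 FPKM in the control and 1.57, 2.11 and 1.76 FPKM in the Al libraries, a scaled log2 fold change of -1.06 ± 0.18 (SE, adjusted P = 0.00108). Fars2, the mitochondrial phenylalanyl enzyme, was at 8.39, 8.70 and 7.39 FPKM in the control and 2.78, 2.82 and 3.01 FPKM in the Al libraries, a scaled log2 fold change of -0.997 ± 0.12 (SE, adjusted P = 0.000178). For both genes every Al library was below every control library, and Fars2 shares exon positions with Lyrm4 and Nrn1 on the opposite strand.

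The 4 mitochondrial genes with the lowest control means were all called lower, though with quantile normalization Wars2, Ears2 and Rars2 were not. Over all tested genes, of any level, 23.7% were called lower, and 23.3% with quantile normalization. Whether the calls went with a low level was not tested. Nars2, the mitochondrial asparaginyl enzyme, was at 3.60, 2.37 and 3.08 FPKM in the control and 1.14, 0.902 and 1.31 FPKM in the Al libraries, a scaled log2 fold change of -0.89 ± 0.21 (SE, adjusted P = 0.00578). Wars2, the mitochondrial tryptophanyl enzyme, was at 2.97, 3.04 and 3.07 FPKM in the control and 0.728, 1.07 and 1.82 FPKM in the Al libraries, a scaled log2 fold change of -0.89 ± 0.26 (SE, adjusted P = 0.0147). The Al replicate with the highest Wars2 value, replicate 3, was still below the controls. Ears2, the mitochondrial glutamyl enzyme, was at 1.69, 2.35 and 1.70 FPKM in the control and 0.502, 0.946 and 0.813 FPKM in the Al libraries, a scaled log2 fold change of -0.81 ± 0.26 (SE, adjusted P = 0.0219). Rars2, the mitochondrial arginyl enzyme, was at 2.81, 3.62 and 3.59 FPKM in the control and 0.943, 1.61 and 1.80 FPKM in the Al libraries, a scaled log2 fold change of -0.73 ± 0.23 (SE, adjusted P = 0.0216). Both Ears2 and Rars2 lost their calls without control replicate 2, at -0.68 and -0.69, and without Al replicate 1, at -0.61 and -0.49, and Rars2 also without control replicate 3, at -0.67. The lowest count behind a called member, 63 reads, was that of Rars2 in Al replicate 1, and no member gained or lost a call when all libraries were thinned to 20973691 reads.

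Yars2 and Mars2 rose. Yars2, the mitochondrial tyrosyl enzyme (chr16:16302965-16309640, plus strand), was at 13.8, 16.3 and 14.3 FPKM in the control and 23.0, 26.4 and 28.0 FPKM in the Al libraries. Mars2, the mitochondrial methionyl enzyme (chr1:55237177-55248470, plus strand), was at 9.05, 10.4 and 9.56 FPKM in the control and 17.9, 17.5 and 15.3 FPKM in the Al libraries. Every Al library was above every control library for both genes. The scaled log2 fold change was 1.28 ± 0.10 (SE, adjusted P = 2.11e-05) for Yars2 and 1.28 ± 0.13 (SE, adjusted P = 7.79e-05) for Mars2. With FPKM as deposited both had a log2 fold change of 0.80 and kept their calls, and with TPM both had one of 0.50 and lost them.

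The other 7 mitochondrial genes were not called. Hars2, the mitochondrial histidyl enzyme, had a scaled log2 fold change of 0.49 with an adjusted P of 0.00635. Hars and Hars2 lie head to head on chromosome 18 (Hars at 36766528 to 36783205 on the minus strand, Hars2 at 36783008 to 36792562 on the plus strand), and their exons overlap. Both had a positive scaled value, 0.41 and 0.49, but with FPKM as deposited they were at -0.08 and 0.01, with TPM both were negative, and with quantile normalization Hars2 was called higher at 0.75. The scaled log2 fold changes of the rest were -0.40 for Vars2, -0.37 for Aars2, -0.25 for Tars2, -0.04 for Lars2, 0.08 for Cars2 and 0.12 for Pars2, the mitochondrial prolyl enzyme. Vars2 and Aars2 passed the adjusted P, at 0.0210 and 0.0179, without the fold.

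The cytosolic set was then compared with the mitochondrial set by the ratio of the enzymes for the same amino acid within each library, which does not depend on a single factor per library. Quantile normalization, which moves genes by their level, changes such ratios, and with it the cytosolic median fold change less the mitochondrial one was -0.62 in place of 0.03. Groups were set apart and tested on log2 ratios of FPKM plus 0.1, and the ratios printed are those of the deposited FPKM. There were 17 such pairs. They were not all independent, since Farsa and Farsb share the partner Fars2, and Eprs is paired with both Ears2 and Pars2. Gars, Kars, Dars and Qars had no partner among the members. The ratio lay wholly apart between the groups in 9 of the 17 pairs (52.9%), with 5 higher and 4 lower in the Al group, while 65.4% of all pairs of tested genes lay apart. With 3 libraries against 3, an exact two-sided permutation test cannot go below P = 0.1, which was reached by these 9 pairs (adjusted over the 17 pairs, 0.189).

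The ratio of Rars to Rars2 was 15.2, 12.6 and 14.8 in the control and 66.0, 39.8 and 35.5 in the Al libraries. On the scaled values it combined an increase of the cytosolic gene with a decrease of the mitochondrial gene. This split depends on the scaling, since Rars lost its call with FPKM as deposited, TPM or quantile normalization. Rars2 lost its call with quantile normalization. The ratio of Sars to Sars2 was 26.7, 33.1 and 38.5 in the control and 91.3, 71.4 and 85.4 in the Al libraries, where Sars2 fell and Sars was not called. The ratios of Farsa and Farsb to Fars2 were 6.19 ± 1.06 and 3.60 ± 0.599 in the control and 13.5 ± 1.10 and 8.09 ± 0.743 in the Al libraries, and that of Iars to Iars2 was 3.11 ± 0.142 and 4.82 ± 1.34 (SD, n = 3 each). In the opposite direction, the ratio of Mars to Mars2 was 3.15, 2.65 and 2.75 in the control and 0.872, 1.01 and 1.04 in the Al libraries, so that the mitochondrial gene came level with the cytosolic one. The ratio of Yars to Yars2 was 8.93, 7.71 and 9.06 in the control and 3.61, 3.15 and 2.88 in the Al libraries. The ratio of Eprs to Pars2 was 15.3 ± 1.86 in the control and 6.09 ± 0.7502 in the Al libraries (SD, n = 3 each). The ratio of Tars to Tars2 lay apart only narrowly and only with the added 0.1, since its lowest control value was 6.17 and its highest Al value 6.18 without it. The other 8 ratios overlapped between the groups, among them those of Nars to Nars2 and Wars to Wars2, in which both genes fell.

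**Figure D3:**
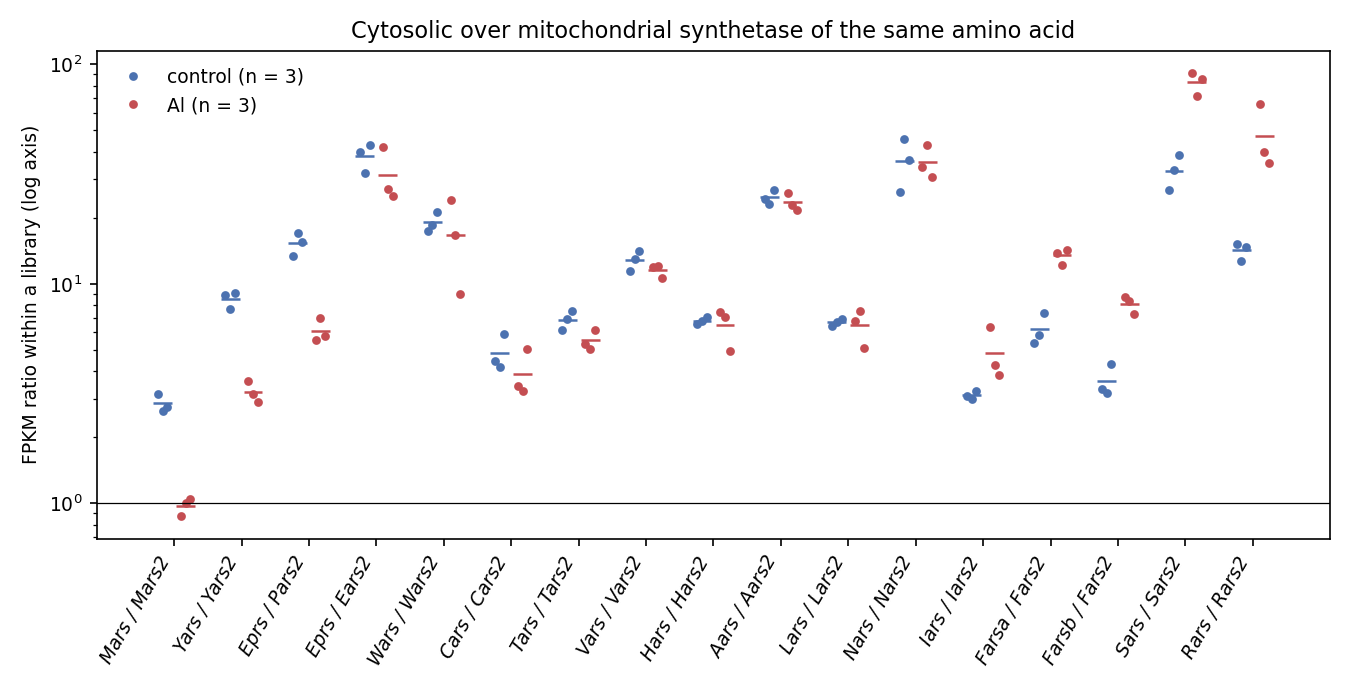
Ratio of the FPKM of a cytosolic enzyme to that of the mitochondrial enzyme for the same amino acid within each library (log axis), for 17 pairs ordered by the change of the ratio. Points are the 3 libraries of each group and lines are group means. Mars to Mars2 and Yars to Yars2, at the left, are lower in all Al libraries, and Sars to Sars2 and Rars to Rars2, at the right, are higher.

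In sum over the set, the cytosolic genes held 0.424% ± 0.00903 of all FPKM in the control and 0.211% ± 0.0117 in the Al libraries (SD, n = 3 each). The mitochondrial genes held 0.0328% ± 0.00177 in the control and 0.0206% ± 0.00234 in the Al libraries. Shares of all FPKM are on the TPM scale, where all tested genes had a median of -0.72 (log2). The summed cytosolic FPKM was 12.3, 12.5 and 14.1 times the mitochondrial one in the control and 10.9, 10.3 and 9.70 times in the Al libraries, without overlap. Without Yars2 and Mars2, a choice made after the values were seen, the ratio to the other 14 mitochondrial genes was 15.2, 15.8 and 17.7 in the control and 20.4, 18.6 and 17.3 in the Al libraries, so that the direction of the means turned and the groups overlapped. The medians of the scaled log2 fold change of the sets, -0.35 and -0.38, differed by 0.03. Both medians were negative under each scaling tried, and both were below the median of all tested genes under each.

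**Figure D4:**
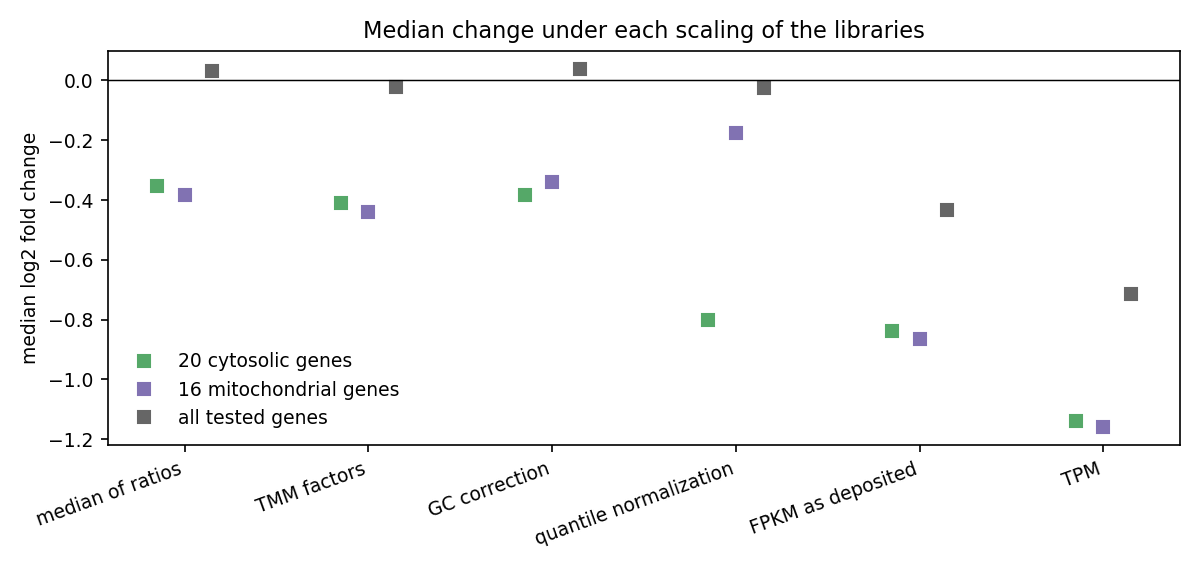
Median log2 fold change (Al over control) of the 20 cytosolic genes, the 16 mitochondrial genes and all tested genes under 6 scalings of the libraries. Both sets lie below all tested genes throughout, and quantile normalization sets them apart, at -0.80 for the cytosolic and -0.18 for the mitochondrial genes.

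Other genes of tRNA charging and of the steps beside it were read from short lists. Of 13 other charging and editing enzymes, 6 fell (46.2%) and 2 rose (15.4%), against 23.7% and 25.5% of all tested genes, with a median scaled log2 fold change of -0.58. Mtfmt, which formylates the methionyl-tRNA that starts mitochondrial translation, was at 5.17, 4.48 and 5.23 FPKM in the control and 0.753, 0.448 and 0.371 FPKM in the Al libraries. The scaled log2 fold change of Mtfmt was -2.62 ± 0.27 (SE, adjusted P = 7.47e-05). Its Al values rested on only 41, 20 and 16 reads. Tarsl2, a second cytosolic threonyl enzyme, had a scaled log2 fold change of -1.20, and Aarsd1, which clears mischarged alanine tRNA, one of -0.94. The genes that rose were Ankrd16, a cofactor of alanyl-tRNA proofreading, at 0.85, and Sepsecs, which makes selenocysteine on its tRNA, at 0.61. Neither was called with FPKM as deposited, at 0.37 and 0.13, where 8 of the 13 genes were called lower and 0 higher, against 41.3% and 13.5% of all tested genes.

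Of 13 genes of tRNA maturation and export, 5 rose (38.5%) and 4 fell (30.8%), against 25.5% and 23.7% of all tested genes, with a median scaled log2 fold change of 0.33. Trmt10c, a subunit of the mitochondrial RNase P that cuts and methylates tRNAs, was at 7.999, 8.02 and 8.66 FPKM in the control and 33.7, 30.2 and 25.6 FPKM in the Al libraries. For Trmt10c the scaled log2 fold change was 2.32 ± 0.15 (SE, adjusted P = 1.21e-05). Clp1, an RNA kinase bound to the tRNA splicing endonuclease, had a scaled log2 fold change of 1.71, Rtcb, the tRNA ligase, one of 1.03, and Tsen54, a subunit of the endonuclease, one of 0.85. Elac1, a tRNA 3′ processing enzyme, had a scaled log2 fold change of -1.65, but it rested on only 15, 45 and 29 reads in the Al libraries. Xpot, the export receptor of tRNA, was at 40.9 ± 2.64 FPKM in the control and 13.7 ± 2.59 FPKM in the Al libraries (SD, n = 3 each), a scaled log2 fold change of -1.10. The endonuclease subunit gene Tsen15 was called lower, at -0.94, while Tsen54 was called higher. Trmt10c and Clp1 were the genes called higher when FPKM was used as deposited, 2 of 13, with 5 called lower, against 13.5% and 41.3% of all tested genes. Of 9 mitochondrial translation factors, 4 were called higher (44.4%, against 25.5% of all tested genes) and 0 lower, with a median of 0.19. These counts depended on the scaling, with 2 higher and 3 lower for FPKM as deposited, where 13.5% of all tested genes were called higher and 41.3% lower, and 0 higher and 5 lower for TPM, where the shares of all tested genes were 8.85% and 52.2%. Mtif2 and Gfm2, named after their values were seen, passed the adjusted P (0.0246 and 0.0327) but not the fold threshold, at -0.41 and -0.54. The genes called higher were the release factor gene Mtrf1l at 1.13, the initiation factor gene Mtif3 at 1.12 and the elongation factor genes Tufm at 0.98 and Gfm1 at 0.79.

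Several members share positions with other genes. The exons of 13 members overlap a gene on the opposite strand and those of Aars overlap Exosc6 on the same strand. Libraries were made with a strand-specific kit, but whether the counting used strand is not stated in the sources used here, so the values of these members are uncertain to that extent. Of the called genes, Fars2, Iars2, Nars2 and Ears2 are among them.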

How the data were processed

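The RNA of 3 control and 3 Al input libraries of HT22 cells was analysed, and the immunoprecipitated libraries were not analysed here. Per the study's methods, the authors trimmed reads with Trimmomatic, removed ribosomal reads with SortMeRNA, used HISAT2 to align the rest to GRCm38/mm10, and deposited FPKM values. The steps of these values matched the recovered totals to within 0.0767%, so no further scaling between libraries was seen in them. The submitters' processing notes name fastp, HISAT2, HTSeq and GRCm39 instead, and the series text names another genome, so the build behind the values is uncertain. Gene positions and promoters here are those of GENCODE and RefSeq on GRCm38, matched by symbol for all 36 members and for 27 of them.

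Whole reads were recovered from the FPKM steps for all 17688 genes above 0, up to a common divisor per gene. A value of 0 still allows 3 reads, a limit for counting error only. FPKM was divided by median-of-ratios size factors (genes above 0 in all libraries, mean FPKM of at least 1), and log2 values with a pseudocount of 0.1 were tested with limma 3.58.1 (R 4.3.3, eBayes with trend) for 12889 genes, those whose mean FPKM reached 0.1, with Benjamini-Hochberg adjustment over all of them. The pseudocount understates the fold of low genes. Called genes passed an adjusted P of 0.05 and a log2 fold change of 0.58 in either direction, the fold used in the study. The study used a count model, which was not run on FPKM. The procedure was tested on simulated data. Few genes were changed in them, as many up as down, so the simulation could not test the choice of scaling between libraries. P values measure the spread among replicates that the submitters call biological. No shared deviation of same-numbered libraries was seen, and the libraries were treated as unpaired.

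The members and the gene lists were chosen with earlier results of these data known. All 36 members are named with their fold change, and those called, with Gars and Kars, are given in every library. Of the other lists, called genes were named, at most 4 in each direction by size, and some items that this rule or the promoter search would name are not reported here. Near-identical copies (at least 90% over 200 bases) were found with minimap2 2.31-r1302. Protein sequences were not used here. Alternatives covered scaling, pseudocount, filter, trend, thresholds, GC content, depth, a voom fit on the recovered reads, a replicate block and leaving out each library. The scaling of the other lists and a sum without Yars2 and Mars2 were added after the data had been seen. Scripts ran under Python 3.11.15 with pandas 2.3.3 and numpy 2.4.6.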

Additional observations from a re-analysis of the deposited data

How the results depend on the processing

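Of the 18 members called, 11 kept the same call under all 22 alternatives (Wars, Eprs, Gars, Nars, Dars, Iars, Qars, Iars2, Sars2, Fars2 and Nars2). The scaling between libraries ended the calls of Kars, Rars, Yars2, Mars2 and Wars2, and several kinds of setting ended those of Ears2 and Rars2. Under FPKM as deposited, TPM and quantile normalization, 0 cytosolic genes were called higher in place of 2, since Kars and Rars lost their calls. The cytosolic genes called lower numbered 14, 16 and 11 in place of 7, and their median log2 fold change was -0.84, -1.14 and -0.80 in place of -0.35. With TPM, 0 mitochondrial genes rose and 13 fell in place of 2 and 7, while quantile normalization left 4 of the 7 lower calls. The mitochondrial median was -0.86, -1.16 and -0.18 under the same scalings, in place of -0.38. The median of all tested genes was -0.43, -0.72 and -0.03 under these scalings. Relative to it, the cytosolic median was -0.38 in the main analysis and -0.41, -0.42 and -0.77 under them, and the mitochondrial one was -0.41 in the main analysis and -0.43, -0.44 and -0.15. With TPM, Farsa (-0.67), Farsb (-0.63), Cars2 (-0.70) and Pars2 (-0.65) changed sign and were called lower. Over all genes, 3291 were higher and 3053 lower in the main analysis, 1736 and 5321 with no size factor, and 1141 and 6734 with TPM. Hars2 was called higher with quantile normalization, which made 3 mitochondrial genes higher. Ears2 and Rars2 also lost their calls with a pseudocount of 1 and with no filter on low values, and Wars2 with quantile normalization. Tars and Vars were called lower with TMM factors and with voom on the recovered reads. GC correction and thinning of reads changed no member's call. The cause of these shifts was not tested.

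Same-numbered control and Al libraries had correlations of -0.033, -0.026 and -0.073 between their deviations from the group means, so no shared replicate effect was seen. These correlations cannot tell whether same-numbered libraries were handled together. With the replicate block, 2 cytosolic genes were called higher and 7 lower, as were 2 and 7 mitochondrial genes, and no member's call changed.

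An exact test on 3 libraries against 3 cannot go below P = 0.1, and the fewest reads behind a called member were 63.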

Other observations

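Genes of the sensing of uncharged tRNA and of amino acid supply were read beside the synthetases, with no test of a link between them. Of 4 genes of the GCN2 branch, 1 was called higher (25%), 1 lower (25%) and 2 were not called. These shares were near the 25.5% and 23.7% of all tested genes called higher and lower. Impact, an inhibitor of GCN2 activation, was called higher, with a scaled log2 fold change of 0.68 ± 0.14 (SE, adjusted P = 0.00237). It was not called with FPKM as deposited, at 0.20. Eif2ak4, the gene of GCN2 itself, was called lower, at -0.60 ± 0.14 (SE, adjusted P = 0.00527), and at -0.51 with quantile normalization it missed the fold threshold. Atf4 was at 311 ± 26.7 FPKM in the control and 305 ± 7.09 FPKM in the Al libraries (SD, n = 3 each), a scaled log2 fold change of 0.47 that did not pass the fold threshold. Its direction depended on the scaling, with -0.02 for FPKM as deposited, -0.32 for TPM and -0.25 for quantile normalization.

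Of 11 genes of amino acid supply and stress that are known to carry ATF4 sites, 3 fell (27.3%) and 2 rose (18.2%), against 23.7% and 25.5% of all tested genes, with a median scaled log2 fold change of -0.01. Trib3, a pseudokinase induced by ATF4, was at 112 ± 10.7 FPKM in the control and 14.4 ± 2.32 FPKM in the Al libraries (SD, n = 3 each), a scaled log2 fold change of -2.47. Chac1, which breaks down glutathione, fell by 1.32, and Slc7a11, the cystine transporter, fell by 0.98 on the same scale. The genes that rose were Sesn2, a leucine sensor, at 0.75, and Slc3a2, the heavy chain of amino acid transporters, at 0.64. With FPKM as deposited they were at 0.27 and 0.15 and were not called, and 5 of the 11 genes were called lower, against 41.3% of all tested genes at that scale.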
